A study of Mus musculus with 13 samples.

Results

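The 9 genes described here belong to the Nodal and activin branch of TGF-beta signalling, and each was taken by its symbol from a table of 25965 genes. They comprised the ligand genes Nodal, Inhba and Inhbb, the co-receptor gene Tdgf1, the receptor gene Acvr2b, the antagonist genes Fst, Lefty1 and Lefty2, and the intracellular inhibitor gene Smad7. They were followed in 13 RNA-seq libraries of female F1 mouse embryonic stem cells (mESCs), which carry 1 X chromosome from an FVB/NJ dam and 1 from a CAST/EiJ sire. Fst was chosen by its knockdown value, being among the genes with the largest fall in log2 CPM after Smarcc1 knockdown, so its difference between hairpin and control libraries is given as a description with no test. The members and the gene lists used below were chosen with results of these data already known.

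Day0 was 1 library of undifferentiated cells held in 2i medium, with no hairpin. The other 12 libraries came from days 4, 5, 6 and 7 of differentiation, after the cells were weaned into serum medium. On each of these days there was 1 library with a nonsilencing control hairpin (Nons), 1 with the hairpin Smarcc1.6 and 1 with the hairpin Smarcc1.7, both directed at Smarcc1, a gene for a central component of the BAF chromatin remodeller. All 12 had been transduced with a retroviral hairpin on day 2 and placed in puromycin on day 3. With 1 library per hairpin and day, the 4 days stand in for replicates of a group, and no separate cultures of 1 group on 1 day were measured. Whether the 4 days of a hairpin came from 1 transduction is not stated in the sample titles or the paper. P-values then measure only the spread between these libraries.

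Nodal and activins are secreted dimers of the TGF-beta family that bind type I and type II activin receptors, and Nodal also needs an EGF-CFC co-receptor such as the one encoded by Tdgf1. The receptors phosphorylate SMAD2 and SMAD3, which enter the nucleus with SMAD4 and act with partners such as FOXH1. Lefty1, Lefty2 and Smad7 are themselves targets of the pathway and restrain it, and follistatin, the product of Fst, binds activin outside the cell. In the early mouse embryo the pathway patterns the epiblast and induces mesendoderm, and in culture it is active in pluripotent cells.

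The guide strands of the 3 hairpins show what separated the groups. Each is printed 5′ to 3′ with the seed (bases 2 to 8) in capitals. The complement of bases 1 to 21 of each Smarcc1 guide was found in 5 Smarcc1 transcripts, counted over transcripts of any type. It was found in no transcript of the 9 members. A match to the seed of Smarcc1.7 was present in 1 member's 3′ untranslated region, that of Smad7, and a match to the Nons seed in that of Inhbb. The seed of Smarcc1.6 had 0 matches in these regions.
Smarcc1.6: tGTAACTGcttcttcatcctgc
Smarcc1.7: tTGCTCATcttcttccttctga
Nons: cTTACTCTcgcccaagcgagag

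Lefty1 and Lefty2 lie on chromosome 1 (chr1:180935022-180938400 and chr1:180893108-180899103, plus strand, mm10), and their likeness matters for counting. Their coding sequences are 1107 bases each and identical at 91.9% of positions. Of the windows of 75 bases, the read length, 11.2% in the Lefty1 transcript and 7.21% in that of Lefty2 were shared between the 2 genes. A read from such a window cannot be assigned to either gene by its own sequence, and the other read of its pair was not considered. Tdgf1 shared 8.67% of such windows with the pseudogene Tdgf1-ps1, and the other 6 members shared none with another gene.

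Among the 5 members with a promoter sequence in RefSeq (Nodal, Tdgf1, Inhba, Inhbb and Acvr2b, GRCm38.p6), only Tdgf1 held AATNNACA. This motif was searched as a loose pattern for FOXH1, with any base at N, and binding was not tested. The stretch chr9:110946234-110946293, minus strand, runs from 135 to 76 bases before the start site and is shown with its 2 AATNNACA matches and 1 CAGAC match, the SMAD motif, in capitals. Both motifs were searched on both strands, and none of the 3 matches overlaps another. AATNNACA was present in 12.2% and CAGAC in 49.6% of 32851 mouse promoters of 300 bases. Acvr2b held 1 CAGAC, and Nodal, Inhba and Inhbb held neither motif in this window.
Tdgf1: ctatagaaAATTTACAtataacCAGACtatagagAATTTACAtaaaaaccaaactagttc

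Depth, recovered from the steps of the values, was lowest for Smarcc1.7 on day 5 (13993440 mapped reads) and highest for Smarcc1.6 on day 4 (63548092). In these 2 libraries 3 reads correspond to a log2 CPM (counts scaled to the mapped reads of the library, on a log2 scale) of -2.22 and -4.40, limits that cover counting error only. Day0 expressed the defining markers of mESCs, with log2 CPM of 10.24 for Pou5f1, 10.47 for Nanog, 8.98 for Zfp42 and 9.08 for Esrrb. Smarcc1 was lower in both hairpin libraries than in Nons on all 4 days, from 9.10 in Nons against 7.42 and 7.96 on day 4 to 7.89 against 7.28 and 7.51 on day 7. The share of reads in genes was 85.3% to 86.5% for Day0 and the 3 day 6 libraries but 91.6% to 92.6% for the remaining 9. Results without day 6 are therefore given for the knockdown estimates of Fst and Smad7, the Acvr2b slope and the counts of calls, but not for every estimate. Fewer cells of a type cannot be told apart from less RNA per cell in these bulk libraries.

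The members spanned a wide range of abundance, and were compared with each other per kilobase of exon in Nons over days 4 to 7 (log2 CPM per kb). Tdgf1 was highest, at 7.35 to 7.78. Nodal followed at 5.16 to 5.66, and its range overlapped those of Lefty2 (4.01 to 5.55) and Lefty1 (3.73 to 5.96). Smad7 (2.62 to 3.56) lay below these 3 genes and Acvr2b (2.12 to 2.41) below Smad7. Fst covered the range from -0.43 to 3.95 as the days passed and so overlapped Smad7 and Acvr2b, whereas Inhbb stayed between -3.30 and -2.64.

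**Figure D1:**
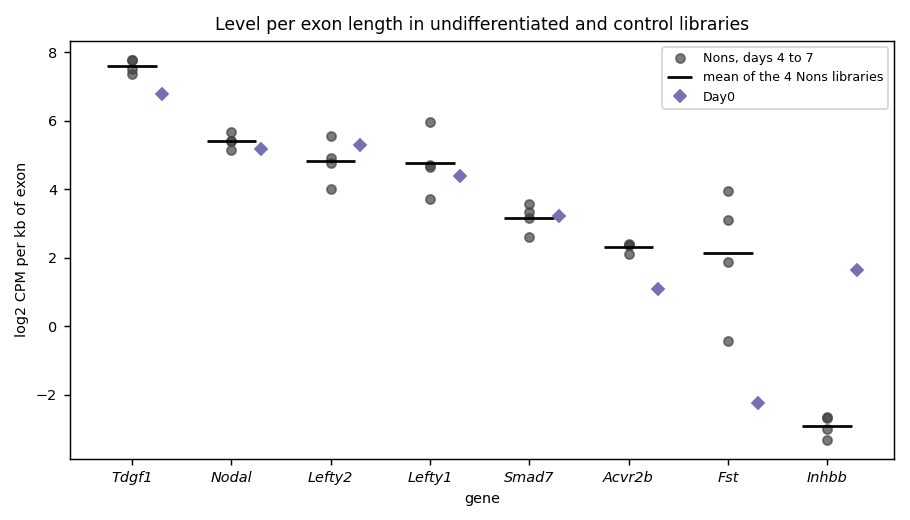
Log2 CPM per kb of exon for 8 genes (Inhba, at 0 to 13 reads, is left out), with 1 point per Nons library of days 4 to 7, a bar at the mean of the 4, and a diamond for the single Day0 library. Tdgf1 lies above all others at 7.35 to 7.78, Fst has the widest range in Nons, and Inhbb is the gene furthest below its Day0 level.

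Nodal, the ligand gene, moved in opposite directions early and late. Its log2 CPM was 6.26 in Day0. Nons gave 6.22, 6.49, 6.48 and 6.73 from day 4 to day 7. Smarcc1.6 gave 7.09, 7.10, 6.28 and 6.51, and Smarcc1.7 gave 6.84, 6.71, 6.00 and 6.34. Both hairpin libraries were thus above Nons on days 4 and 5 and below it on days 6 and 7. The mean of the 2 hairpins minus Nons was 0.74 and 0.41 on the first 2 of these days, and -0.34 and -0.31 on the last 2. Over all days the knockdown estimate of 0.13 (SE 0.16) did not pass the threshold (limma adjusted p = 0.652). The slope over days differed between knockdown and Nons by -0.39 per day (SE 0.13), which had an unadjusted p of 0.0136 and an adjusted p of 0.775 in limma.

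The activin subunit genes Inhba and Inhbb, which encode the beta A and beta B chains shared by activins and inhibins, differed in how far they could be measured, and Inhba was near the limit of detection. Inhba had 0 reads in Day0, 0 to 8 reads in Nons and 0 to 13 in the hairpin libraries. Its highest count was in Smarcc1.7 on day 7, and no fold is given because many of its libraries were at or under 3 reads. Inhbb had 298 reads in Day0, a log2 CPM of 3.74, against 20 to 32 reads in Nons. Over the 4 days Nons gave log2 CPM of -0.90, -1.21, -0.55 and -0.57. Smarcc1.6 gave 1.57, 0.12, -1.41 and 0.13, and Smarcc1.7 gave 1.19, -1.48, -0.67 and 0.36. On day 4 both hairpin libraries lay above Nons, with 189 and 99 reads against 32, and on days 5 and 6 the hairpin values lay on both sides of Nons or below it, and on day 7 both lay above it. The mean difference for Smarcc1.6 was 0.91 ± 1.39, and that for Smarcc1.7 was 0.66 ± 1.09 (SD over 4 days), so the spread between days exceeded it. Neither gene reached the mean log2 CPM of 0 needed for a test, and 7 of the 9 members did.

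Tdgf1, which encodes the co-receptor Cripto, was the most abundant member. Its log2 CPM was 8.17 in Day0, and all 12 later libraries lay above this, between 8.67 and 9.45. In Nons it was 9.15, 8.74, 8.89 and 9.17. Smarcc1.6 gave 9.45, 9.16, 8.67 and 9.29, and Smarcc1.7 gave 9.45, 9.15, 8.91 and 8.86. Both hairpin libraries were above Nons on days 4 and 5 (mean differences 0.30 and 0.41), and on days 6 and 7 they lay on either side of it. The knockdown estimate of 0.13 (SE 0.10) had a limma adjusted p of 0.453.

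Acvr2b, a type II receptor gene, was 3.08 in Day0 and higher in every later library, between 3.73 and 4.80. Nons gave 4.09, 4.38, 4.36 and 4.34 from day 4 to day 7. Smarcc1.6 gave 3.88, 4.23, 4.28 and 4.10, below Nons on each day, with a mean difference of -0.17 ± 0.07. Smarcc1.7 gave 3.73, 4.37, 4.23 and 4.80, and its day 7 library was the highest of all 13. The knockdown estimate was -0.09 (SE 0.12, limma adjusted p = 0.663).

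**Figure D2:**
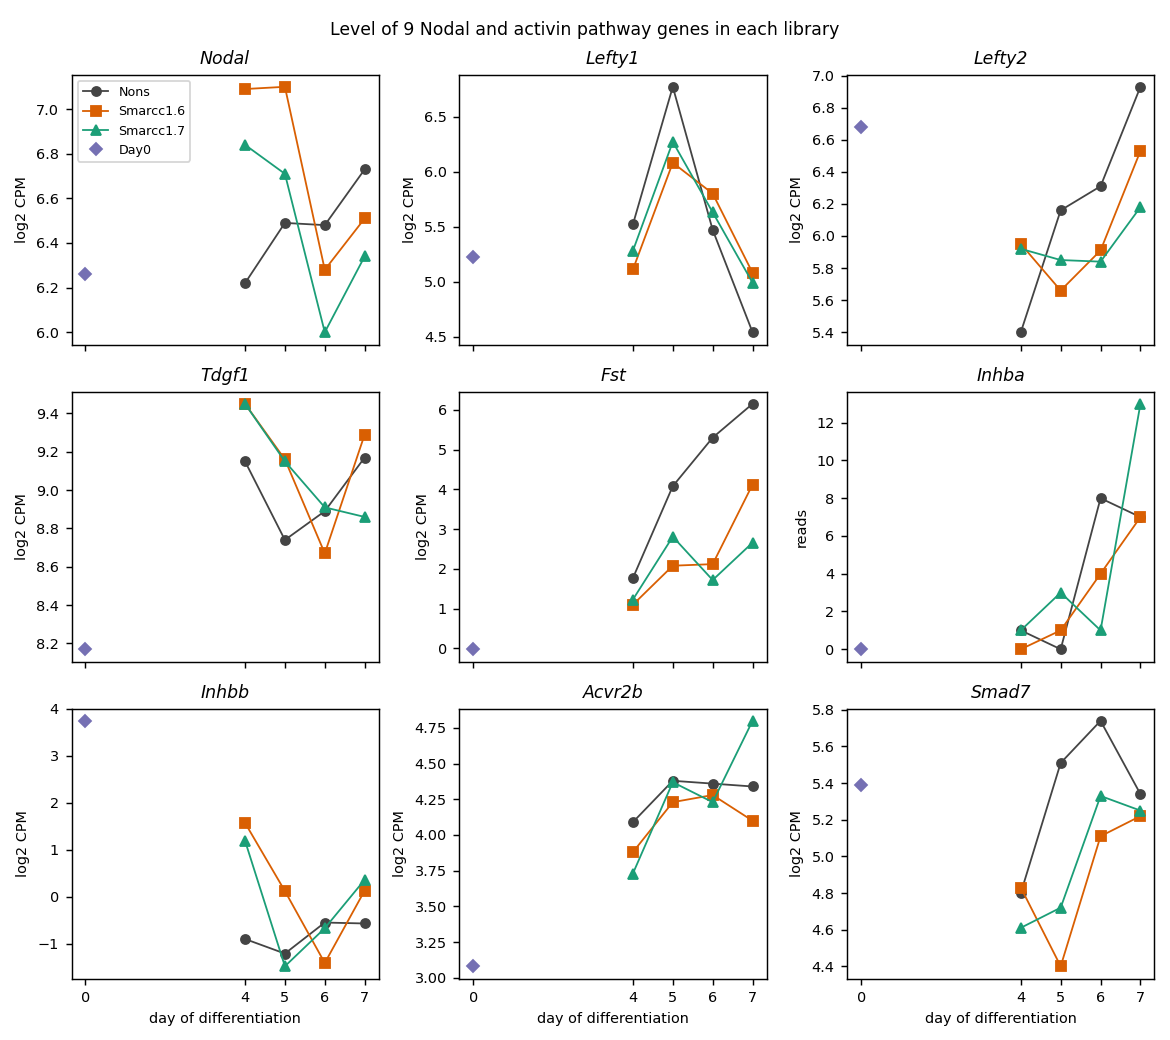
Log2 CPM (reads for Inhba) against day of differentiation for each of the 9 genes, with 1 point per library: grey circles for Nons, orange squares for Smarcc1.6, green triangles for Smarcc1.7 and a diamond for Day0. The axes differ between panels. In the Fst panel the Nons line climbs to 6.15 on day 7 above both hairpin lines, and in the Nodal panel the hairpin lines start above Nons and end below it.

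Fst was the member with the widest separation between hairpin and control libraries, which is the reason it was listed. Day0 had 22 reads, a log2 CPM of -0.02. In Nons it stood at 1.77, 4.08, 5.30 and 6.15 on days 4 to 7, reaching 2105 reads on day 7. Smarcc1.6 gave 1.10, 2.08, 2.12 and 4.12, and Smarcc1.7 gave 1.23, 2.81, 1.72 and 2.66. All 8 hairpin libraries were below Nons of their day. The difference averaged -1.97 ± 1.03 for Smarcc1.6 and -2.22 ± 1.55 for Smarcc1.7 (SD over 4 days), or 25.5% and 21.5% of the Nons level. It was -0.60 on day 4, -1.64 on day 5, -3.38 on day 6 and -2.76 on day 7, as the mean of both hairpins. Without day 6 the knockdown estimate was -1.67, against -2.09 with it.

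The 2 Lefty genes, whose products antagonise Nodal at its receptors, had different courses. Lefty1 was 5.22 in Day0 and peaked on day 5 in all 3 groups. Nons gave 5.52, 6.77, 5.47 and 4.54 from day 4 to day 7. Smarcc1.6 gave 5.11, 6.08, 5.80 and 5.08, and Smarcc1.7 gave 5.28, 6.27, 5.63 and 4.99. Both hairpin libraries lay below Nons on days 4 and 5 (means -0.33 and -0.60) and above it on days 6 and 7 (0.24 and 0.50), the order opposite to that of Nodal. The knockdown estimate over all days was -0.05 (SE 0.14, limma adjusted p = 0.869).

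Lefty2 was 6.68 in Day0 and rose from 5.40 through 6.16 and 6.31 to 6.93 in Nons. Smarcc1.6 gave 5.95, 5.66, 5.91 and 6.53, and Smarcc1.7 gave 5.92, 5.85, 5.84 and 6.18. On day 4 both hairpin libraries were above Nons, by a mean of 0.53, and on days 5, 6 and 7 both were below it, by means of -0.40, -0.43 and -0.57. The knockdown estimate was -0.22 (SE 0.15, limma adjusted p = 0.359). It depended on 1 control library, since without Nons of day 4 it was -0.47 with an adjusted p of 0.00439. The slope over days differed between knockdown and Nons by -0.34 per day (SE 0.11, unadjusted p = 0.0121, adjusted p = 0.775 in limma).

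Smad7, which encodes an inhibitory SMAD that blocks the activated receptors, was 5.39 in Day0. Nons gave 4.80, 5.51, 5.74 and 5.34 from day 4 to day 7. Smarcc1.6 gave 4.83, 4.40, 5.11 and 5.22, and Smarcc1.7 gave 4.61, 4.72, 5.33 and 5.25. Of the 8 hairpin libraries 7 were below Nons of their day, with the widest gap on day 5 (mean -0.95) and little separation on days 4 and 7 (-0.08 and -0.10). The knockdown estimate of -0.42 (SE 0.13) did not pass the threshold, with a limma adjusted p of 0.0582. It passed in 4 of 25 alternatives: without Nons of day 4 (-0.53, adjusted p = 0.0276), without Nons of day 7 (-0.52, adjusted p = 0.0367), and without all libraries of either of these days. Without day 5 the estimate shrank to -0.24 (limma adjusted p = 0.252), and without day 6 it was -0.38 (adjusted p = 0.231).

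**Figure D3:**
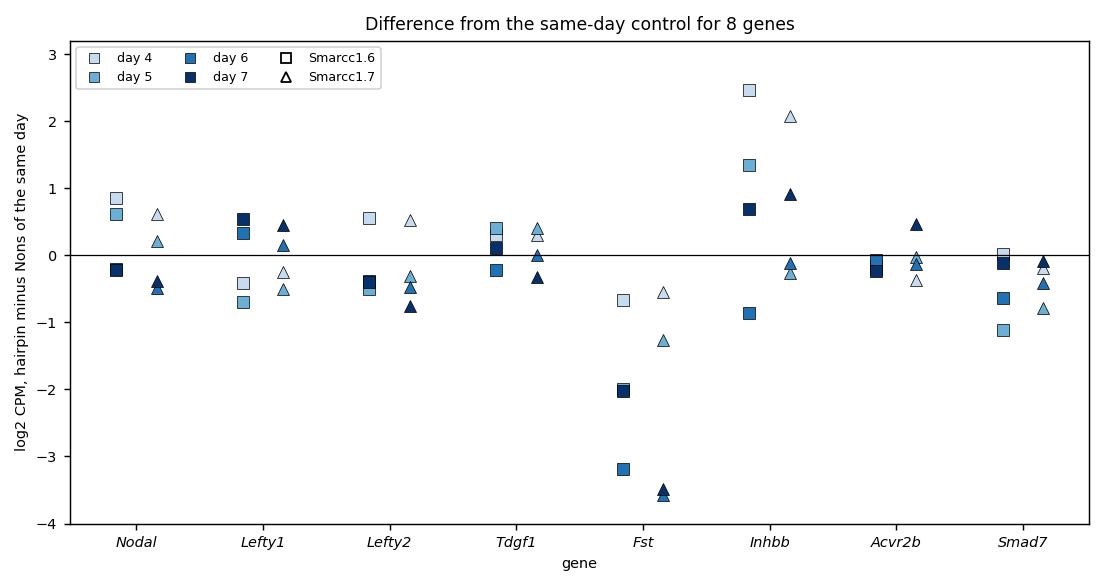
Log2 CPM of each hairpin library minus Nons of the same day for 8 genes, with squares for Smarcc1.6, triangles for Smarcc1.7 and darker blue for later days. All 8 Fst points lie below 0, whereas the points of Nodal, Lefty1 and Lefty2 lie on both sides of 0 with the sign changing between day 4 and day 7.

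Of all 13406 genes tested, 11.6% differed between knockdown and Nons at a Benjamini-Hochberg adjusted p under 0.05, and 4.77% were lower. Of the 6 tested members other than Fst, 0 passed that threshold (limma). No gene passed the threshold between the 2 hairpins (percent called 0, with 530 genes at an unadjusted p under 0.05 in limma, the only tool run). The closest of the members was Nodal, higher by 0.27 in Smarcc1.6 (SE 0.17, adjusted p = 0.989). Comparisons of the 2 hairpins with Nons share the same 4 control libraries.

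The wider pathway was described with a list of 53 genes, members included, of which 41 other than Fst were tested. In knockdown 7 of these 41 were lower and 0 higher, against the 4.77% lower over all genes, and the median log2 difference was -0.11 against -0.01 over all genes tested. In a joint fit of the 3 groups, 5 of 41 were lower with Smarcc1.6 (3.71% of all genes were). With Smarcc1.7, 1 was lower (0.768%), and 0 were higher with either hairpin. Fitted to Nons and a single hairpin only, 0 of 43 passed for Smarcc1.6 and 0 of 42 for Smarcc1.7. By role, the 7 were 3 of the 4 tested mesendoderm targets, 2 of 12 intracellular inhibitors, 1 of 5 transducers and 1 of 8 receptor and co-receptor genes. Of the 6 ligand genes tested, of the 4 antagonists other than Fst and of the 2 convertase genes, 0 passed.

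The number of calls depended on single days. Without day 6 there was 1 call among the 41 pathway genes then tested, and without day 5 there was 1 among 42. Leaving out Nons of either day alone also left 1 call, so T, Eomes, Pmepa1, Bambi, Foxh1 and Tgfbr1 all lost theirs in these 4 settings. Without Nons of day 4 there were 11 calls, Lefty2 and Smad7 among them.

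T, which encodes the mesoderm factor Brachyury, separated late. Nons gave 0.97, 2.62, 5.03 and 7.49, Smarcc1.6 gave 1.28, 1.27, 0.87 and 4.19, and Smarcc1.7 gave 1.02, 1.48, 0.10 and 2.04. On day 4 both hairpin libraries were slightly above Nons and from day 5 both were below it. The estimate was -2.50 (SE 0.67, limma adjusted p = 0.0341), and it passed in 11 of 25 alternative settings. Eomes, a T-box factor of mesendoderm, had the same order: 5.25, 4.70, 6.16 and 6.79 in Nons against 5.57, 4.16, 4.40 and 5.47 in Smarcc1.6 and 5.43, 4.19, 4.38 and 4.79 in Smarcc1.7. Its estimate was -0.92 (SE 0.26, limma adjusted p = 0.0440), which passed in 9 of 25 alternatives.

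Calls outside the mesendoderm targets were smaller than those of T and Eomes. Pmepa1, which encodes a TGF-beta target that restrains SMAD signalling, was lower in 7 of 8 comparisons, by -0.70 (SE 0.18, limma adjusted p = 0.0297). Bambi, a gene for a pseudoreceptor that lacks a kinase domain, was lower in 8 of 8, by -0.46 (SE 0.13, adjusted p = 0.0459). Foxh1, the gene for the DNA-binding partner of SMAD2 named above, was lower in 6 of 8, by -0.34 (SE 0.09, adjusted p = 0.0368). Tgfbr1, a type I receptor gene, was lower in 8 of 8, by -0.23 (SE 0.07, adjusted p = 0.0490). These 4 passed in 15, 4, 8 and 3 of the 25 alternatives.

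**Figure D4:**
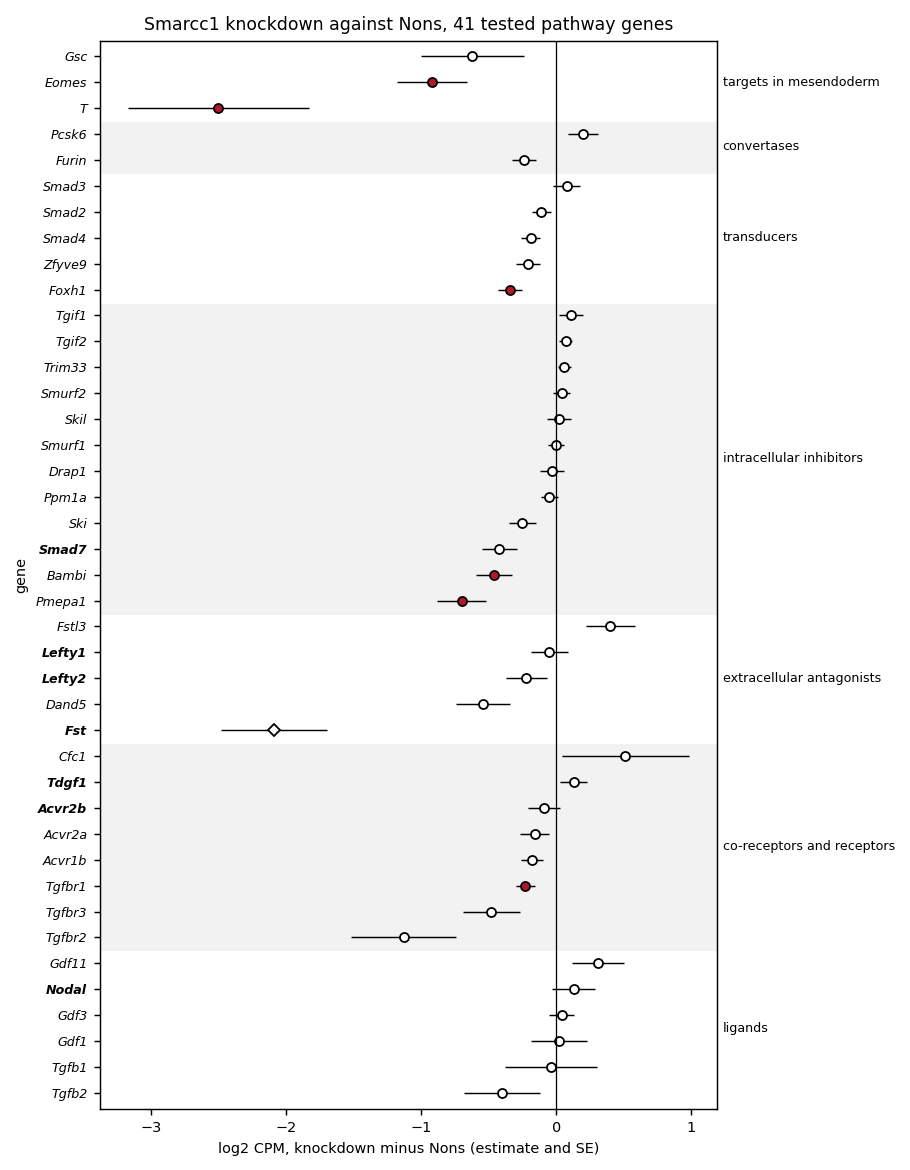
Knockdown minus Nons on the log2 CPM scale, as the limma estimate with its SE, for 41 pathway genes, Fst included, in their roles, members in bold. Filled points have an adjusted p under 0.05, open circles do not, and the open diamond is Fst, given without a test. The 6 filled points all lie below 0, with T at -2.50 the lowest. Not every called gene is drawn, so the filled points are fewer than the 7 calls in the text.

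Markers of cell types moved with the same libraries. Of all 13406 genes tested, 922 were higher in knockdown and 639 lower. Among 8 mESC markers, all tested, 6 were higher in knockdown (Tfcp2l1, Sox2, Klf4, Dppa3, Zfp42 and Esrrb). The summed CPM of the 8 was 1110 to 1760 in Nons and 1120 to 2700 in the hairpin libraries. The summed CPM of 6 mesoderm markers was 25.4 to 274 in Nons and 20 to 69.1 in the hairpin libraries, and T, which is also on the mesendoderm list, was the 1 of 4 tested that passed. On day 7 T alone made up most of the Nons sum. Its log2 CPM was then 7.49, against 4.19 in Smarcc1.6 and 2.04 in Smarcc1.7. The knockdown estimates of Hand1 (0.26), Bmp4 (0.23) and Kdr (-1.10) did not pass. The sum therefore shows no fall across these markers as a set. The 8 markers of primitive and visceral endoderm summed to 22.3 to 86.4 and 19.6 to 59.3, and Sox17, lower, was the 1 of 5 tested that passed. Gata4 (-0.36), Dab2 (-0.29), Pdgfra (-0.45) and Gata6 (0.29) did not pass. Of the 6 neural markers 5 were tested, and Sox1, Tubb3 and Otx2 were higher. Pax6 (0.21) and Nes (-0.41) did not pass. The 6 summed to 189 to 412 in Nons and 212 to 473 in the hairpin libraries. Fibroblast markers summed to 9.61 to 87.8 and 20.2 to 188, with Col1a2 and Thy1 higher among 4 tested. Col1a1 (0.15) and Dcn (-0.49) did not pass. The 6 trophoblast markers summed to 65.0 to 3520 and 73.8 to 3200, with Krt8 lower among 5 tested. Tfap2c (0.37), Ascl2 (0.17), Cdx2 (-0.22) and Krt18 (-0.27) did not pass. None of these markers was at or below 3 reads in every library. The part of these cell types in the levels of Fst and the other members was not tested.

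Change over days 4 to 7 was fitted across the 3 groups. The rule that listed Fst did not use this slope, but the slope comes from the same libraries as the values it did use. Over all tested genes 34.9% rose and 25.6% fell with day, and with each library centred on its median the numbers became 3648 rising and 4606 falling, from 4679 and 3435. Of the 7 tested members 4 rose and 0 fell. Fst rose by 0.89 per day (SE 0.19, limma adjusted p = 0.00220), with separate slopes of 1.44 (Nons), 0.91 (Smarcc1.6) and 0.32 (Smarcc1.7). That difference in slope between knockdown and Nons was -0.82 per day, a value from the groups the rule compared and so given without a test.

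Lefty2 rose by 0.25 per day (SE 0.07, limma adjusted p = 0.0110), Smad7 by 0.21 (SE 0.07, adjusted p = 0.020) and Acvr2b by 0.15 (SE 0.06, adjusted p = 0.0425). With libraries centred on the median these 3 no longer passed (adjusted p = 0.0557, 0.10 and 0.321), and Tdgf1, at -0.09 per day without a call, then passed as falling by 0.17 per day (adjusted p = 0.0421). Fst lost its call without day 4 (0.66 per day, adjusted p = 0.0701), and Lefty2 without day 7 (0.13 per day, adjusted p = 0.294). Acvr2b and Smad7 also lost theirs without day 4 (adjusted p = 0.685 and 0.170), and Acvr2b without day 6 (adjusted p = 0.0775). Nodal (-0.11 per day, SE 0.08, adjusted p = 0.257) and Lefty1 (-0.20 per day, SE 0.15, adjusted p = 0.268) did not pass. Lefty1 passed only without day 4, when its slope was -0.75 per day from the day 5 peak (adjusted p = 0.00124), and Tdgf1 also passed without day 7 (-0.26 per day, adjusted p = 0.00824).

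Of the 42 pathway genes tested for change per day, 21 rose and 5 fell, or 16 and 8 after centring on the median. The median slope was 0.21 per day against 0.04 over all genes. Among the largest called slopes other than those of members were Tgfb2, Tgfbr2, T, Gsc and Fstl3. Tgfb2, a ligand gene, rose by 1.7 per day (SE 0.24, limma adjusted p = 0.000163), from -0.90 on day 4 to 4.29 on day 7 in Nons. Tgfbr2, which encodes the type II TGF-beta receptor, rose by 1.32 per day (SE 0.19, adjusted p = 0.000150). T rose by 1.07 per day, Gsc, a homeobox gene of the organiser, by 0.71, and Fstl3, a relative of follistatin, by 0.64. For T and Gsc these slopes pool unlike courses. From day 4 to day 7 T went from 0.97 to 7.49 in Nons and from 1.28 to 4.19 in Smarcc1.6. In Smarcc1.7 it went from 1.02 to 2.04. Gsc went from -1.09 to 2.64 in Nons, from -1.18 to 1.00 in Smarcc1.6 and from -0.98 to 0.01 in Smarcc1.7. The 5 that fell were Gdf3, a ligand gene of pluripotent cells (-0.54 per day), Pcsk6 (-0.53), Skil (-0.30), Trim33 (-0.27) and Tgif2 (-0.09).

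**Figure D5:**
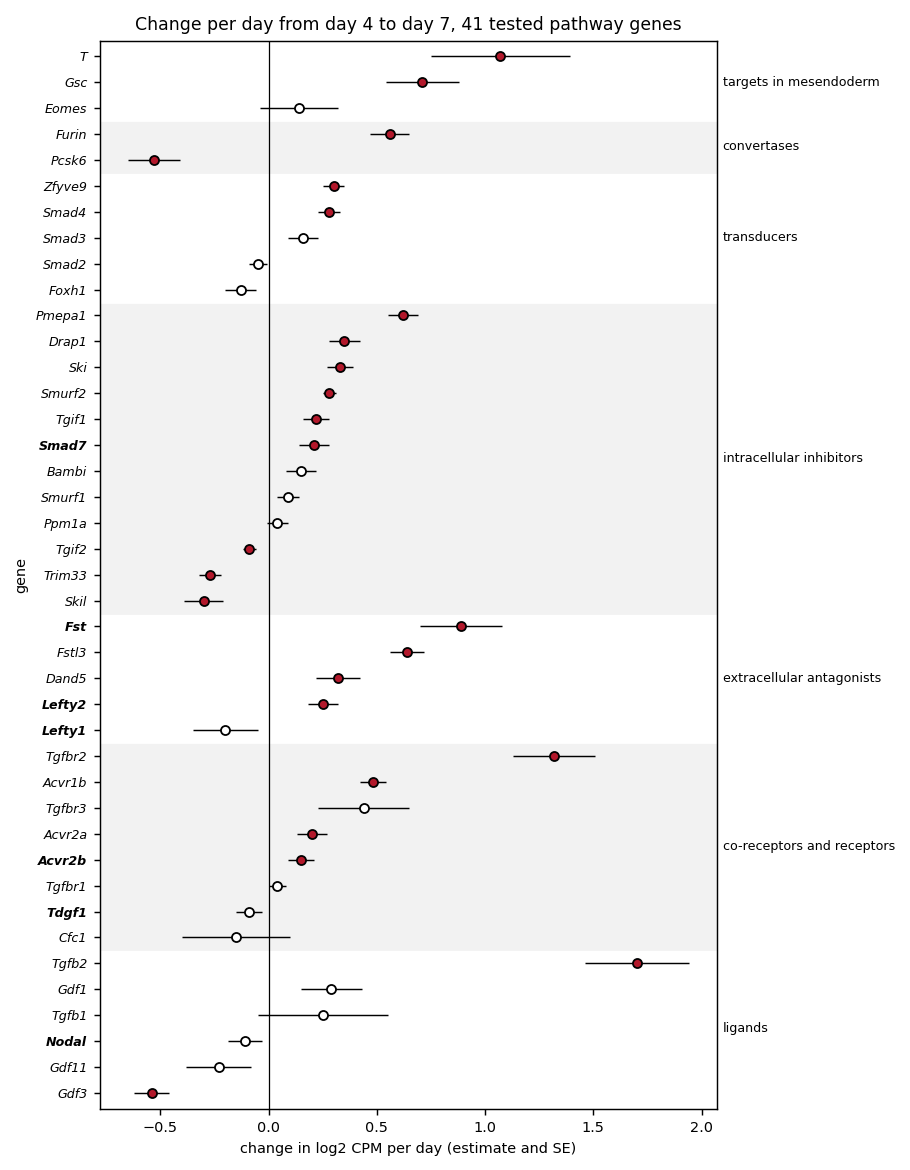
Change in log2 CPM per day from day 4 to day 7, as the limma estimate with its SE, for 41 of the 42 tested pathway genes in their roles, members in bold and filled points at an adjusted p under 0.05. Fst at 0.89 per day has the largest slope of the members, and Gdf3 at -0.54 lies lowest.

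No gene in the table had a slope that differed between knockdown and Nons after adjustment (percent called 0, with 745 genes at an unadjusted p under 0.05 in limma, the only tool run). Of the 41 pathway genes other than Fst, 5 had an unadjusted p under 0.05, Nodal and Lefty2 among them. The opposite courses of Nodal in hairpin and control libraries thus did not pass the adjustment over all genes.

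Genes with a pattern like that of Fst, once the mean of each day was removed, were ranked by Pearson correlation over the 12 libraries, as a description. The 5 closest to Fst were Klhl18 (r = 0.989), Tor1b (0.980), Sptlc2 (0.978), Usp16 (0.977) and Fgf8 (0.973). Of these Fgf8, a growth factor gene of gastrulation, had a knockdown difference near that of Fst, -1.88 on the log2 scale, and the other 4 differed by -0.36 to -0.31. The 5 closest to Nodal were S1pr2 (0.971), Ngly1 (0.963), Fubp3 (0.960), Ptgs2 (0.960) and A930004D18Rik (0.957), and their knockdown differences were 0.10 to 0.25. The points share libraries, depth and the contrast between groups.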

How the data were processed

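TruSeq libraries were read by the authors as 75-base pairs (NextSeq500). Trimming used trim_galore, and alignment used tophat or hisat2 on mm10 with FVB/NJ and CAST/EiJ polymorphisms masked. The submitters' processing notes name TopHat2 2.0.12. Which library had which aligner, the strand setting and the annotation release are not given in the sources used here. Genes were quantified in Seqmonk and deposited as log2 CPM, the only unit used. Genes without reads appear as 0.9 reads in that file, and 100% of low values were whole multiples of 1 read (tolerance 0.02 reads), which gave depth. All 13 columns were used, and groups and days came from the sample titles.

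Genes whose log2 CPM averaged 0 or more across the 12 differentiation libraries were fitted with limma 3.58.1 in R 4.3.3 (lmFit, eBayes with trend), with Benjamini-Hochberg adjustment over all tested genes and a threshold of 0.05. Models had day as a factor for knockdown and for each hairpin, and day as a number for slopes. Samples sharing a replicate number share a day, which is the block. Day0 entered no test. Only the model of both hairpins pooled against Nons was tested on simulated data, with counts drawn independently for each library.

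The members and lists were chosen with earlier results of these data known. Besides the members, the text names pathway genes called in knockdown (at most 10), the 6 largest called slopes, and the 5 genes most correlated with Fst and with Nodal. Not every gene under this rule is reported here, but the counts cover all of them. Markers, and the 5 falling genes, were named in addition after their values were seen. Alternatives were filters, an added 0.5 CPM, no trend, centring, thinning, no day block and left-out libraries. Gene models came from GENCODE M21 and promoters from RefSeq (GRCm38.p6), where 5 of 9 members matched. Hairpin sequences came from the study's supplementary tables. Python 3.11.15, numpy 2.4.6, pandas 2.3.3 and matplotlib 3.10.9 were used.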

Additional observations from a re-analysis of the deposited data

Results flagged for a closer look

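Nodal, Lefty1 and Lefty2 differed from Nons in 1 direction in both hairpin libraries on day 4 and in the opposite direction in both on day 7. The mean difference on the log2 scale went from 0.74 to -0.31 for Nodal, from -0.33 to 0.50 for Lefty1 and from 0.53 to -0.57 for Lefty2. The contrast between these 2 days was not tested by itself. The slope over all 4 days differed between knockdown and Nons with an adjusted p of 0.775 for Nodal and Lefty2 and of 1 for Lefty1 in limma, so none passed. Acvr2b in Nons on day 4, at a log2 CPM of 4.09, stood apart from the 3 later Nons libraries. This was 1 of 27 groups of 4 libraries examined, where about 1.35 would stand apart by chance, and the 4 libraries are days of a time course.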

How the results depend on the processing

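The count of 7 pathway genes lower in knockdown became 2 with no trend, 0 with no replicate block (day left out of the model), 0 with Smarcc1.6 only and 0 with Smarcc1.7 only, and lay between 1 and 11 on leaving out days or single libraries. Over all genes the 1561 calls became 4 with no replicate block, 289 without day 6, 373 without day 5, 69 with Smarcc1.6 only and 0 with Smarcc1.7 only. The 5 calls for Smarcc1.6 became 3 with no trend, 2 after thinning to the smallest depth and 0 with no replicate block, and ran from 0 to 9 without a day or library. The 1 call for Smarcc1.7 became 3 with no filter, 2 with 0.5 added to CPM, and 0 with no trend, after thinning and with no replicate block, and ran from 0 to 7 without a day or library. The causes were not tested. The pathway counts for change per day, between hairpins and for knockdown by day stayed within 1.5 times of the values given, or at 0. Of 341 values of single members under an alternative, 311 kept their side of the threshold or lay within the spread, 19 lost a call, 9 gained one, 2 moved (Inhbb per day, to 0.41 and -0.75) and 0 reversed a called direction. The 311 include all 25 values of the Fst knockdown difference, which was the reason Fst was listed. They were judged by spread alone, and the filters, no trend and no day block leave that estimate unchanged. The count is therefore no check of the Fst difference. Inhba was not recomputed. Pairing by replicate number is pairing by day. With 1 library per group and day, the day is the only replicate, and differences at 1 day have no replicate check.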
